A study of Mus musculus with 12 samples.

Results

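The 34 genes described here encode the enzymes, transporters and regulators by which liver handles glucose and glycogen, and they were taken by symbol from a table of 13304 genes, in which all 34 were found. The values come from RNA-seq of whole liver of C57Bl/6J mice aged 12 to 14 weeks, with 1 library from each of 5 *Maf1*-/- mice (KO 1 to KO 5) and 7 wild-type (WT) mice (WT 1 to WT 7). MAF1 is a repressor of RNA polymerase III. The labels describe the knockout only as *Maf1* KO and the study as mice lacking *Maf1*, so the allele is not detailed here. Mice of both genotypes ate chow, were fasted overnight and were refed for 4 h before the livers were perfused and taken, and RNA was depleted of ribosomal and globin sequences. The comparison is therefore between genotypes in the refed state. No fasted liver is among these 12 libraries, so the response to refeeding itself was not measured.

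After a meal the liver takes up glucose through the transporter GLUT2 (*Slc2a2*), stores it as glycogen and directs the rest through glycolysis to pyruvate. During fasting the flow turns round, and glucose is released from glycogen and made anew from lactate, amino acids and glycerol. Insulin lowers and glucagon raises transcription of *Pck1*, *G6pc* and *Igfbp1* through FOXO factors and CREB, whereas carbohydrate raises transcription of *Pklr* and *Khk* through ChREBP, so the mRNA of these genes is commonly read as a sign of the fed or fasted state.

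The promoters of 6 of these genes are shown first, because they hold the short sequences through which such signals are known to act. Each line runs 5′ to 3′ on the gene's strand from 200 to 41 bases before the RefSeq gene start (160 bases, build GRCm38.p6), with the matched letters in capitals. The motifs were ACGTCA, the core of the cyclic AMP response element, in *Pck1* (chr2:173152873-173153032, plus strand). CAAAACA or its reverse complement TGTTTTG, the core of the insulin response element, was matched in *Igfbp1* (chr11:7197587-7197746, plus strand) and *G6pc* (chr11:101367516-101367675, plus strand). In *Pklr* (chr3:89136423-89136582, plus strand) the paired sites CANGNG and CNCNTG, 5 bases apart, mark the form of a carbohydrate response element. The E-box CACGTG was matched in *Khk* (chr5:30921359-30921518, plus strand) and *Ppp1r3c* (chr19:36736645-36736804, minus strand).
Pck1: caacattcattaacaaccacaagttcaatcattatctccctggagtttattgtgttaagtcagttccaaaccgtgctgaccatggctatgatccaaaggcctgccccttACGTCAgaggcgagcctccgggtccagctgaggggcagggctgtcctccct
Igfbp1: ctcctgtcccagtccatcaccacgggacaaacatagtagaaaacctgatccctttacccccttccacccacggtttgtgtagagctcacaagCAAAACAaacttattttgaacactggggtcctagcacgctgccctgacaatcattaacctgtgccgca
G6pc: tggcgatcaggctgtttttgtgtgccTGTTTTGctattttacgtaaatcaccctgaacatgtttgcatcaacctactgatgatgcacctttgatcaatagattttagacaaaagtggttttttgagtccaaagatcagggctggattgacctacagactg
Pklr: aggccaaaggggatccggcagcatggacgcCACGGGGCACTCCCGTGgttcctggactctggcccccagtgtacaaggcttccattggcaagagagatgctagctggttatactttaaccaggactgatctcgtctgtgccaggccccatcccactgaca
Khk: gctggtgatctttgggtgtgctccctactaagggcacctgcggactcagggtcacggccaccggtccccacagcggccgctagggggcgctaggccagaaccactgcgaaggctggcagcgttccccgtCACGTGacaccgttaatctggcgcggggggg
Ppp1r3c: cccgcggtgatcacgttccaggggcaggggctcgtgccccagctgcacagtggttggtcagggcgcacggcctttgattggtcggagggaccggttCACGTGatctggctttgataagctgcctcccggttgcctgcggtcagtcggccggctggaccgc

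The match began 91 bases before the start in *Pck1*, 108 in *Igfbp1*, 174 in *G6pc*, 170 in *Pklr*, 71 in *Khk* and 104 in *Ppp1r3c*. RefSeq promoters (250 bases before to 50 after the start, both strands searched) were found for 30 of the 34 genes, as 45 promoters, and not for *Gys2*, *Ppp1r3b*, *Sds* and *Gpd1*. ACGTCA was in 11.1% of the 45, against 7.51% of 32851 mouse promoters. It was also matched in *Ldha*, *Pkm* and *Slc37a4*. CAAAACA was in 8.89%, against 6.28% of all promoters, with *Gckr* and *Pck2* as the other genes, and CACGTG in 8.89%, against 7.15%, with *Ldha* and *Pcx* as the others. The pair of sites was in 1 of the 45 promoters (2.22%), that of *Pklr*, and in 0.557% of all promoters. It was added after the sequences had been seen. CACGTG and the paired sites can share letters, and these counts describe letters and not bound sites.

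The table gives, for each gene and library, the log2 of the reads relative to the scaled library size (log2 CPM), and the libraries held 34709661 to 41931441 reads in the listed genes in *Maf1*-/- and 35003720 to 55787438 in WT liver. *Maf1* itself had 5 to 52 reads in *Maf1*-/- libraries and 254 to 534 in WT libraries, which is the check of the labels. All 8 hepatocyte markers were measured, at 52902 reads or more, and all 34 genes had reads in every library, between 42 (*Pck2*) and 57713 (*Tat*). The library WT 2 stood apart from the other WT libraries. Its GC slope, the change of a library's values with the GC content of genes, was −0.57 log2 units per 10 points of GC, where the *Maf1*-/- libraries had −0.54 to 0.08 and the other WT libraries 0.14 to 0.35 (exact p = 0.0568 between genotypes, WT 2 included). It lay nearer to the *Maf1*-/- mean than to the mean of the other WT libraries for 28 of the 34 genes (82.4%), as it did for 80.8% of all genes. In whole tissue, fewer cells of a type and less RNA per cell cannot be told apart.

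None of the 34 genes differed between *Maf1*-/- and WT liver in limma at the thresholds of the study, which ask for a p below 0.01 after Benjamini-Hochberg adjustment over all 13304 genes and a log2 difference of more than 0.5 in size. The study's fit also held factors of unwanted variation (RUVSeq), whose number it does not give. The fit here held none, so its calls are not those of the study's own test. Of all genes, 0.015% passed. An unadjusted p under 0.05 was reached by 2 of 34 genes, *Ppp1r3b* with the higher mean in *Maf1*-/- liver and *Pfkl* with the lower, where 23.1% of all genes reached it (9.9% higher and 13.2% lower). The share of these genes with such a p was thus below that of the table. The median log2 fold change was −0.16 over the 34 genes and −0.02 over all genes, and 22 of 34 (64.7%) were below 0, against 52.9% of all genes. No gene of the 34 had groups that did not overlap, as 0.586% of all genes had. The absolute log2 fold change was above 0.5 for 8 of 34 genes, against 15.97% of all genes, and above 1 for 0 of 34. Of these 8 genes, 7 were lower in *Maf1*-/- liver, and the share of all genes by direction is not given here. The 95% intervals of 23 of the 34 lay wholly within a change of 1 log2 unit in either direction, and their median distance from estimate to bound was 0.42.

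**Figure D1:**
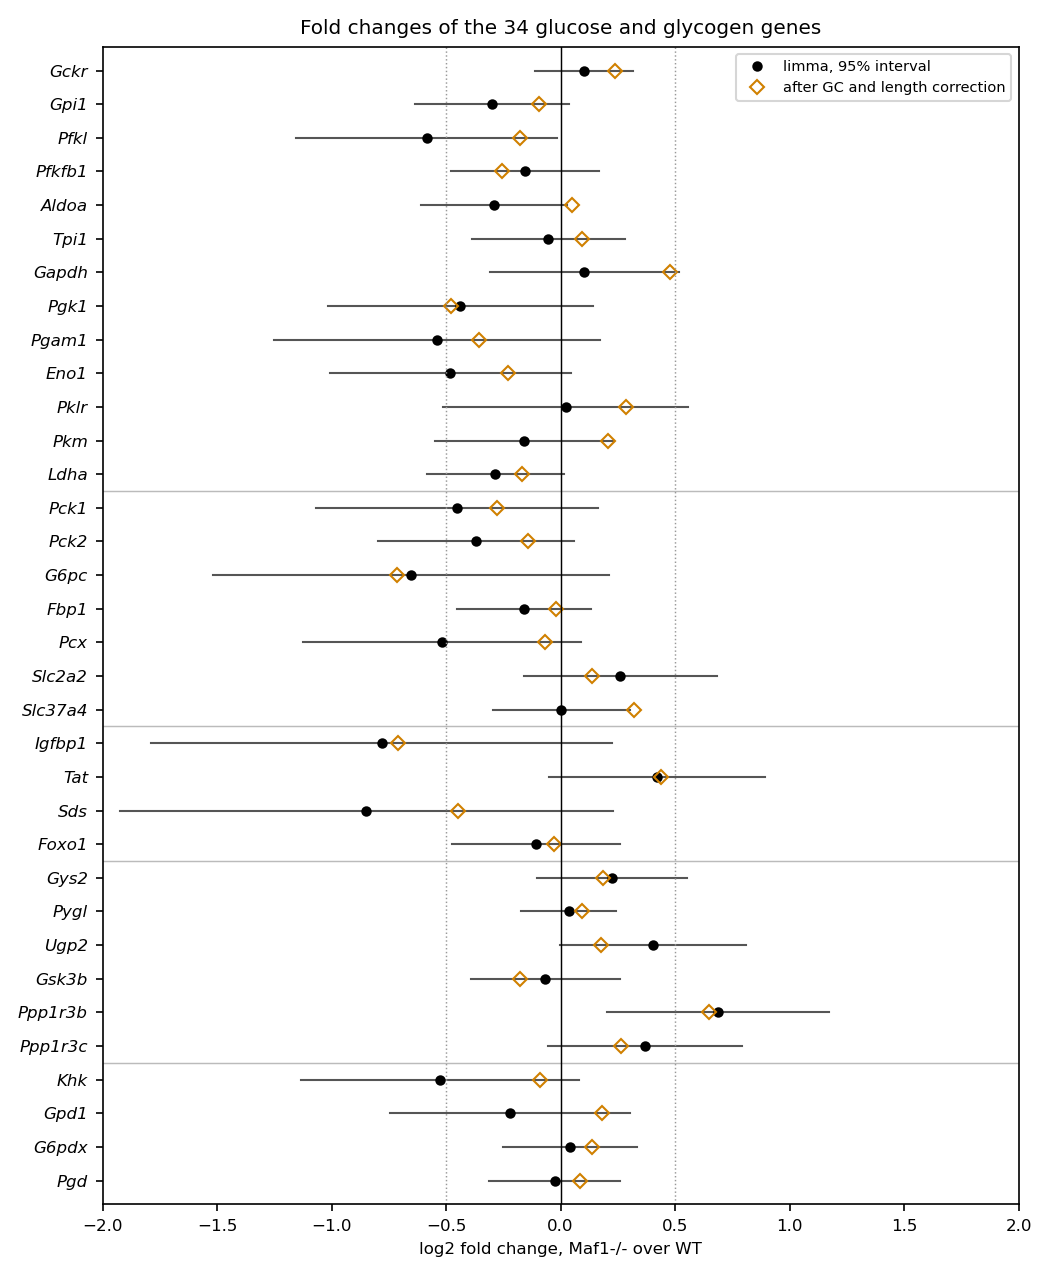
Log2 fold change of *Maf1*-/- over WT for each of the 34 genes (horizontal axis, log2 units), in the order of their roles and with lines between the groups. Black points with 95% intervals are from limma, open diamonds are the values after removal of each library's GC and length trends, and the dotted lines mark 0.5 in either direction. The 6 glycogen genes have 5 values above 0, and *Ppp1r3b* at 0.69 and *Pfkl* at −0.58 are the genes whose interval leaves out 0.

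Glycogen genes were the block with the largest share of values above 0, 5 of 6, where 6269 of all 13304 genes were above 0. Their median log2 fold change was 0.30, and 0.18 after the GC and length correction, at a median GC content of 47.0%. Of 24 other glycogen genes measured outside the 34, 12 were above 0, with a median of −0.001. *Ppp1r3b* (chr8:35375739-35388139 in GRCm38) encodes the subunit that brings protein phosphatase 1 to glycogen in liver, where it activates glycogen synthase. Its log2 values were 9.04, 8.99, 8.88, 8.13 and 8.80 in *Maf1*-/- livers, against 8.45, 8.58, 8.42, 7.74, 7.40, 7.82 and 8.15 in WT livers. Of the 5 *Maf1*-/- values, 4 lay above every WT value and that of KO 4 lay inside the WT range. The means were 8.77 ± 0.37 in *Maf1*-/- and 8.08 ± 0.44 in WT (SD, n = 5 and 7), and the log2 difference was 0.69 (SE 0.22, adjusted p = 0.192, exact permutation p = 0.0202), or 1.61-fold, with a 95% interval of 0.20 to 1.17. With each library corrected for its GC content and length trends the log2 fold change was 0.65 (adjusted p = 0.232), and without WT 2 it was 0.77 (adjusted p = 0.0237), so its size moved little and it did not pass in either. Without KO 4 the groups of *Ppp1r3b* did not overlap, which was fixed in advance, since the other *Maf1*-/- values lay above every WT value. It was then the 1 gene of 34 with all *Maf1*-/- values higher, where 0.631% of all genes were. That share gives no support, because KO 4 was picked after the values of this gene were seen.

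*Ugp2*, which makes the UDP-glucose that glycogen synthase uses, had log2 values of 8.66, 8.25, 9.08, 9.15 and 9.06 in *Maf1*-/- livers, against 8.46, 9.03, 8.51, 8.51, 8.18, 8.16 and 8.22 in WT livers. KO 3, KO 4 and KO 5 were above every WT value, KO 2 lay among the lower WT values, and WT 2 lay with the high *Maf1*-/- values. Its log2 fold change was 0.40 (SE 0.19, adjusted p = 0.217, exact permutation p = 0.0745), and 0.18 (adjusted p = 0.432) after the GC and length correction. At 41.2% GC it is the gene of the 34 with the lowest GC content. *Gys2*, the glycogen synthase of liver, had log2 values of 7.69, 7.64, 8.08, 7.54 and 7.57 in *Maf1*-/- livers, against 7.84, 7.87, 7.31, 7.58, 7.29, 7.15 and 7.32 in WT livers. The groups overlapped, with KO 3 above every WT value, and the log2 fold change was 0.22 (SE 0.15, adjusted p = 0.345, exact permutation p = 0.17), and 0.13 without KO 3.

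Among the other glycogen genes, *Ppp1r3c*, a related targeting subunit also called PTG, lay at 6.39 to 7.30 in *Maf1*-/- and 6.11 to 6.98 in WT livers with a log2 fold change of 0.37 (adjusted p = 0.253). *Pygl*, the liver phosphorylase that breaks glycogen down, had the narrowest spread of the 34 genes in *Maf1*-/- liver, with means of 8.16 ± 0.09 in *Maf1*-/- and 8.12 ± 0.15 in WT (SD, n = 5 and 7), and its log2 fold change was 0.04 (adjusted p = 0.824). *Gsk3b*, a kinase that inhibits glycogen synthase, had −0.07 (adjusted p = 0.784). None of the 6 passed. Of 12 lists of cell type markers, the stellate list had the smallest exact permutation p. Its summed level over 9 genes was 626.5 to 995.9 in *Maf1*-/- and 525.7 to 755.8 in WT liver (exact permutation p = 0.0139, not adjusted over the lists). Of the 9 genes, 7 had log2 fold changes above 0 and 3 an unadjusted p under 0.05, against 23.1% of all genes. After the GC and length correction 2 of 9 reached that p, against 17.7% of all genes. Their median GC content was 45.4%, the fewest reads were 36, and their part in the values above was not tested.

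**Figure D2:**
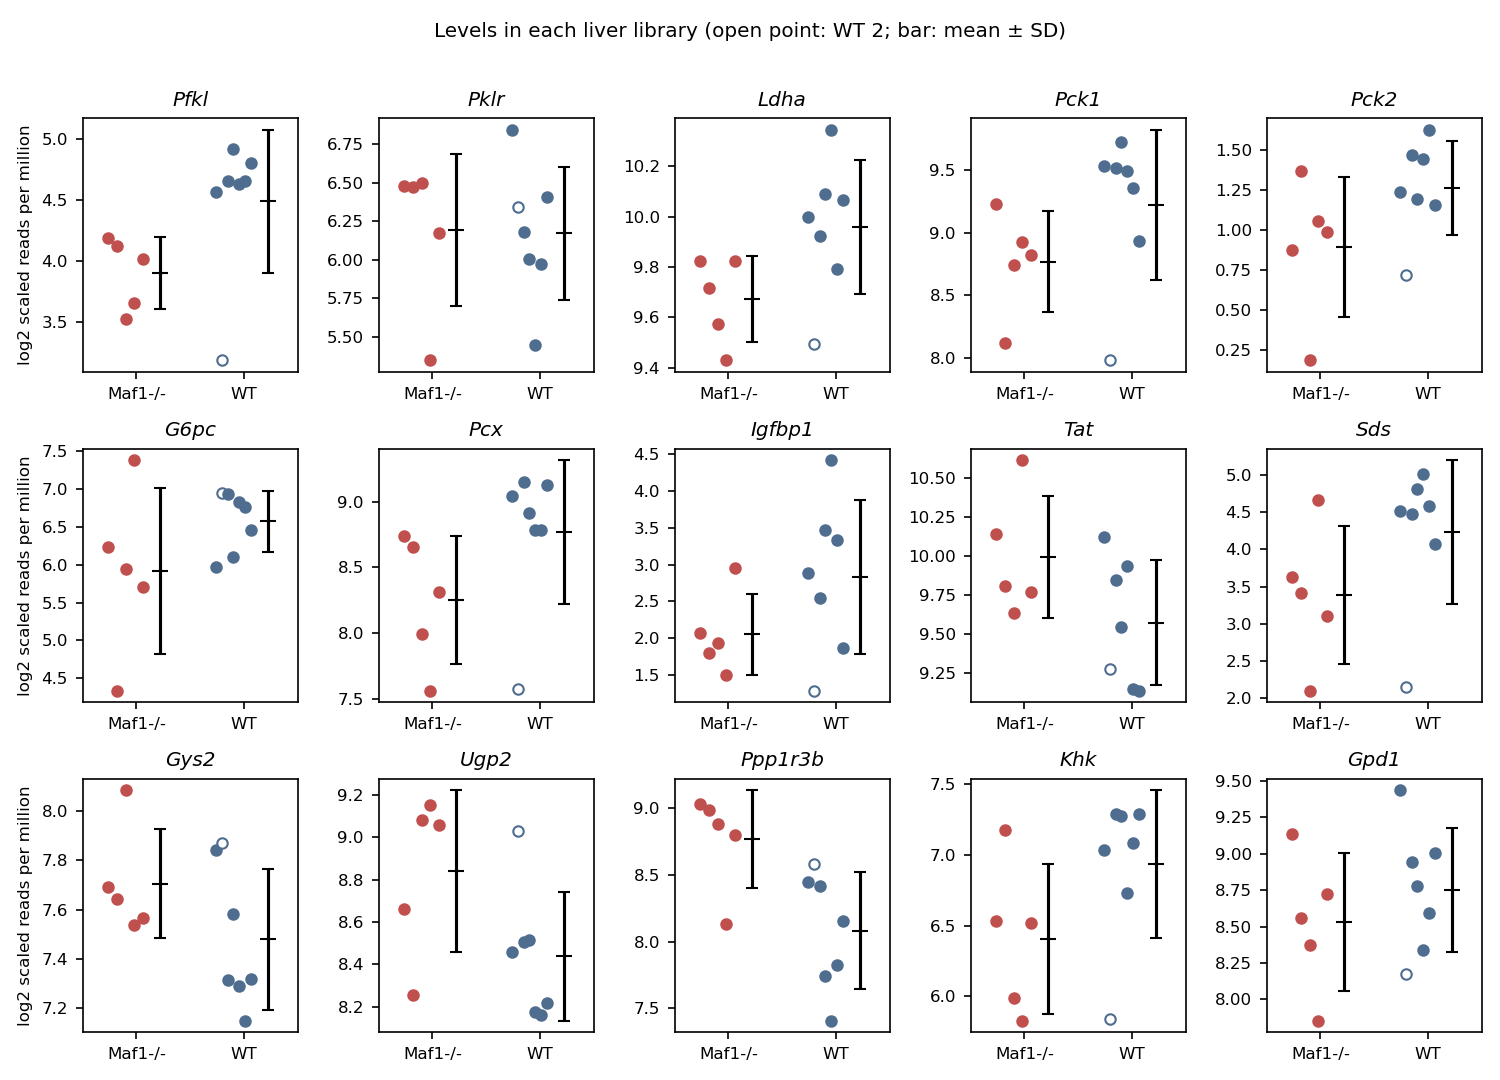
Log2 CPM (vertical axes, 1 scale per gene) of the 15 genes given by library, with *Maf1*-/- livers left and WT livers right. Each point is 1 mouse, the open point is WT 2, and bars give the mean and SD (n = 5 and 7). *Ppp1r3b* is the gene with 4 of 5 *Maf1*-/- points above all WT points, and in *Pfkl*, *Pcx* and *Khk* the open point lies below the other WT points.

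Glycolytic genes had 10 of 13 values below 0 and a median log2 fold change of −0.28, at a median GC content of 53.2%. After the GC and length correction 7 of 13 were below 0, with a median of −0.09. Of 7 erythroid markers 5 were measured, all with log2 fold changes below 0 and a median of −0.98. Their summed level was 62.2 to 100.4 in *Maf1*-/- and 66.5 to 140.4 in WT liver (exact permutation p = 0.0619). An unadjusted p under 0.05 was reached by 1 of 5, against 23.1% of all genes, and by 5 of 5 without WT 2, against 43.5%. The fewest reads of a marker in a library were 3. All but *Alas2* are globin genes, whose sequences had been depleted from the RNA. The part of these markers in the glycolytic values was not tested. *Pfkl* (chr10:77986947-78010083), the liver form of phosphofructokinase and the committed step of glycolysis, had log2 values of 4.18, 4.12, 3.52, 3.65 and 4.02 in *Maf1*-/- livers, against 4.56, 3.18, 4.66, 4.91, 4.62, 4.65 and 4.80 in WT livers. All 5 *Maf1*-/- values lay below 6 of the 7 WT values, and WT 2 was the lowest of all 12 libraries. The means were 3.90 ± 0.29 in *Maf1*-/- and 4.48 ± 0.59 in WT (SD, n = 5 and 7), and the difference was −0.58 (SE 0.26, adjusted p = 0.212, exact permutation p = 0.0732), with a 95% interval of −1.16 to −0.01. Without WT 2 it was −0.80 (adjusted p = 0.00654) and passed. After the GC and length correction it was −0.18 (adjusted p = 0.464) with all libraries and −0.27 (adjusted p = 0.105) without WT 2, and did not pass.

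*Ldha*, which interconverts pyruvate and lactate, had log2 values of 9.82, 9.72, 9.57, 9.43 and 9.82 in *Maf1*-/- livers, against 10.00, 9.49, 9.92, 10.09, 10.34, 9.79 and 10.07 in WT livers. The *Maf1*-/- values lay in or below the lower part of the WT range, with WT 2 again the lowest WT library. Its log2 fold change was −0.28 (SE 0.14, adjusted p = 0.227, exact permutation p = 0.0657), and −0.17 (adjusted p = 0.397) after the GC and length correction. *Pklr*, the liver pyruvate kinase whose promoter is shown above, had log2 values of 6.48, 6.47, 6.50, 5.35 and 6.17 in *Maf1*-/- livers, against 6.84, 6.35, 6.18, 6.00, 5.45, 5.97 and 6.41 in WT livers. KO 4 was the lowest *Maf1*-/- library and WT 5 the lowest WT library, and the groups overlapped, with the highest value in WT 1. The means were 6.19 ± 0.49 in *Maf1*-/- and 6.17 ± 0.43 in WT (SD, n = 5 and 7), and the log2 fold change of 0.02 (SE 0.25, adjusted p = 0.957, exact permutation p = 0.934) had a 95% interval of −0.51 to 0.56.

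*Eno1*, an enolase, lay at 5.40 to 6.09 in *Maf1*-/- and 5.13 to 6.80 in WT livers with a log2 fold change of −0.48 (adjusted p = 0.239), and at −0.67 (adjusted p = 0.00952) without WT 2. With the trends of GC content and length removed it was −0.23 (adjusted p = 0.417) with all libraries and −0.34 (adjusted p = 0.0703) without WT 2, and did not pass. *Gpi1* and *Aldoa*, for glucose phosphate isomerase and aldolase A, had −0.30 (adjusted p = 0.243) and −0.29 (adjusted p = 0.239). *Pfkfb1*, which sets the level of fructose 2,6-bisphosphate, had −0.16 (adjusted p = 0.495). *Tpi1*, triosephosphate isomerase, had −0.05 (adjusted p = 0.835), and *Gckr*, an inhibitor protein of glucose phosphorylation in liver, 0.10 (adjusted p = 0.506). None of these passed with all libraries.

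*Pgk1* (phosphoglycerate kinase, −0.44 (adjusted p = 0.299)), *Pgam1* (phosphoglycerate mutase, −0.54 (adjusted p = 0.3)), *Pkm* (the pyruvate kinase of most other tissues, −0.16 (adjusted p = 0.572)) and *Gapdh* (0.10 (adjusted p = 0.736)) are uncertain, because much of their sequence has copies elsewhere. Of the stretches of 32 bases in the exons of *Pgam1*, 93.6% also occurred elsewhere in the mouse genome (NCBIM37), and the share was 72.5% for *Pgk1*, 62.2% for *Pkm* and 53.3% for *Gapdh*. It was 31.2% for *Ldha*, 26.8% for *Tpi1*, 25.6% for *Eno1*, 21.3% for *Aldoa*, 17.8% for *Gpi1* and 12.1% for *G6pdx*, and 5.9% or less for the other 24 genes. *Gapdh* is commonly among the most abundant mRNAs of a cell, yet per length it lay at 1.59 to 2.21 in *Maf1*-/- and 1.39 to 2.49 in WT liver, where *Tpi1*, one step before it, lay at 7.21 to 7.84 and 7.06 to 7.90. How reads that match several places were counted is not given in the sources used here, and its part in these levels was not tested.

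Genes of glucose production had 5 of 7 values below 0 and a median log2 fold change of −0.37, which was −0.07 after the GC and length correction. *Pck1*, the cytosolic phosphoenolpyruvate carboxykinase and a classical fasting gene, had log2 values of 9.23, 8.12, 8.74, 8.93 and 8.82 in *Maf1*-/- livers, against 9.54, 7.98, 9.52, 9.73, 9.50, 9.36 and 8.93 in WT livers. WT 2 and KO 2 were the lowest, and the other *Maf1*-/- values lay in or below the lower part of the other WT values. The means were 8.77 ± 0.41 in *Maf1*-/- and 9.22 ± 0.60 in WT (SD, n = 5 and 7), and the difference was −0.45 (SE 0.28, adjusted p = 0.312, exact permutation p = 0.177). It was −0.66 (adjusted p = 0.0252) without WT 2, −0.29 without KO 2 and −0.28 (adjusted p = 0.544) after the GC and length correction. *G6pc*, the catalytic subunit of glucose-6-phosphatase, had log2 values of 6.23, 4.34, 5.94, 7.38 and 5.71 in *Maf1*-/- livers, against 5.97, 6.94, 6.94, 6.10, 6.83, 6.76 and 6.46 in WT livers. The *Maf1*-/- livers held both the highest value, in KO 4, and the lowest, in KO 2, with an SD of 1.09 against 0.40 in WT. Its log2 fold change was −0.65 (SE 0.40, adjusted p = 0.3, exact permutation p = 0.173), and it was −0.26 without KO 2 and −1.02 without KO 4.

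*Pcx*, pyruvate carboxylase, which feeds pyruvate into glucose production, had log2 values of 8.74, 8.65, 7.99, 7.56 and 8.31 in *Maf1*-/- livers, against 9.05, 7.57, 9.15, 8.92, 8.79, 8.79 and 9.12 in WT livers. The *Maf1*-/- values lay below all WT values but WT 2, which was as low as KO 4. Its log2 fold change was −0.52 (SE 0.28, adjusted p = 0.257, exact permutation p = 0.124) and −0.07 (adjusted p = 0.774) after the GC and length correction. *Pck2*, the mitochondrial carboxykinase and the gene of the 34 with the fewest reads, had log2 values of 0.88, 1.37, 0.19, 1.06 and 0.99 in *Maf1*-/- livers, against 1.24, 0.72, 1.47, 1.20, 1.44, 1.62 and 1.16 in WT livers. The groups overlapped, with KO 3 the lowest, and the log2 fold change was −0.37 (SE 0.20, adjusted p = 0.255, exact permutation p = 0.105). It was −0.19 without KO 3 and −0.14 (adjusted p = 0.589) after the GC and length correction. *Fbp1*, fructose bisphosphatase, had −0.16 (adjusted p = 0.444), *Slc2a2*, for GLUT2, 0.26 (adjusted p = 0.384), and *Slc37a4*, which carries glucose 6-phosphate into the endoplasmic reticulum, 0.00 (adjusted p = 0.988).

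Of the genes of the fasting response, *Igfbp1* (chr11:7197782-7202546), a secreted binding protein of insulin-like growth factors that insulin strongly lowers, had log2 values of 2.06, 1.79, 1.93, 1.49 and 2.96 in *Maf1*-/- livers, against 2.88, 1.28, 2.55, 3.47, 4.42, 3.34 and 1.86 in WT livers. Of the 5 *Maf1*-/- values, 4 lay near the low end of the WT range, WT 2 was the lowest and WT 5 the highest of all libraries. The means were 2.05 ± 0.55 in *Maf1*-/- and 2.83 ± 1.05 in WT (SD, n = 5 and 7), and the log2 fold change of −0.78 (SE 0.46, adjusted p = 0.29, exact permutation p = 0.162) had a 95% interval of −1.79 to 0.22. It was −0.71 (adjusted p = 0.375) after the GC and length correction, and −1.04 (adjusted p = 0.0693) without WT 2. Without WT 5 it was −0.52. The WT livers alone thus spanned more than 3 log2 units in this gene, and a difference of the size measured lay within that spread.

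*Sds*, serine dehydratase, which turns serine into pyruvate, had log2 values of 3.63, 3.42, 2.10, 4.66 and 3.11 in *Maf1*-/- livers, against 4.52, 2.15, 4.47, 4.81, 5.01, 4.58 and 4.08 in WT livers. KO 3 and WT 2 were far below the rest, and KO 4 lay among the WT values. Its log2 fold change was −0.85 (SE 0.50, adjusted p = 0.285, exact permutation p = 0.164), −0.53 without KO 3 and −0.45 (adjusted p = 0.548) after the GC and length correction. *Tat*, tyrosine aminotransferase, a gene that glucocorticoid and glucagon raise, had log2 values of 10.14, 9.81, 9.64, 10.62 and 9.77 in *Maf1*-/- livers, against 10.13, 9.28, 9.85, 9.55, 9.94, 9.15 and 9.14 in WT livers. KO 4 was the highest and the groups overlapped. Its log2 fold change was 0.42 (SE 0.22, adjusted p = 0.243, exact permutation p = 0.101), above 0 where *Sds*, *Igfbp1* and *Pck1* were below 0, and 0.27 without KO 4. *Foxo1*, for the transcription factor that insulin removes from the nucleus, had −0.11 (adjusted p = 0.69).

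*Khk*, ketohexokinase, the entry of fructose into metabolism, had log2 values of 6.53, 7.17, 5.99, 5.83 and 6.52 in *Maf1*-/- livers, against 7.03, 5.84, 7.29, 7.28, 6.73, 7.08 and 7.29 in WT livers. KO 2 lay among the WT values, the other *Maf1*-/- values lay below the 6 higher WT values, and WT 2 was as low as KO 4. The log2 fold change was −0.53 (SE 0.28, adjusted p = 0.254, exact permutation p = 0.12), and −0.09 (adjusted p = 0.745) after the GC and length correction. *Gpd1*, glycerol 3-phosphate dehydrogenase, which links glycolysis to triglyceride, had log2 values of 9.14, 8.56, 8.37, 7.85 and 8.72 in *Maf1*-/- livers, against 9.43, 8.17, 8.94, 8.78, 8.34, 8.59 and 9.00 in WT livers. The groups overlapped, and its log2 fold change of −0.22 (SE 0.24, adjusted p = 0.552, exact permutation p = 0.417) was 0.18 (adjusted p = 0.578) after that correction, with the sign reversed, and −0.37 without KO 1, −0.05 without KO 4 and −0.11 without WT 1. *G6pdx* and *Pgd*, the oxidative enzymes of the pentose phosphate pathway, had 0.04 (adjusted p = 0.859) and −0.03 (adjusted p = 0.908), with intervals of −0.25 to 0.33 and −0.31 to 0.26.

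**Figure D3:**
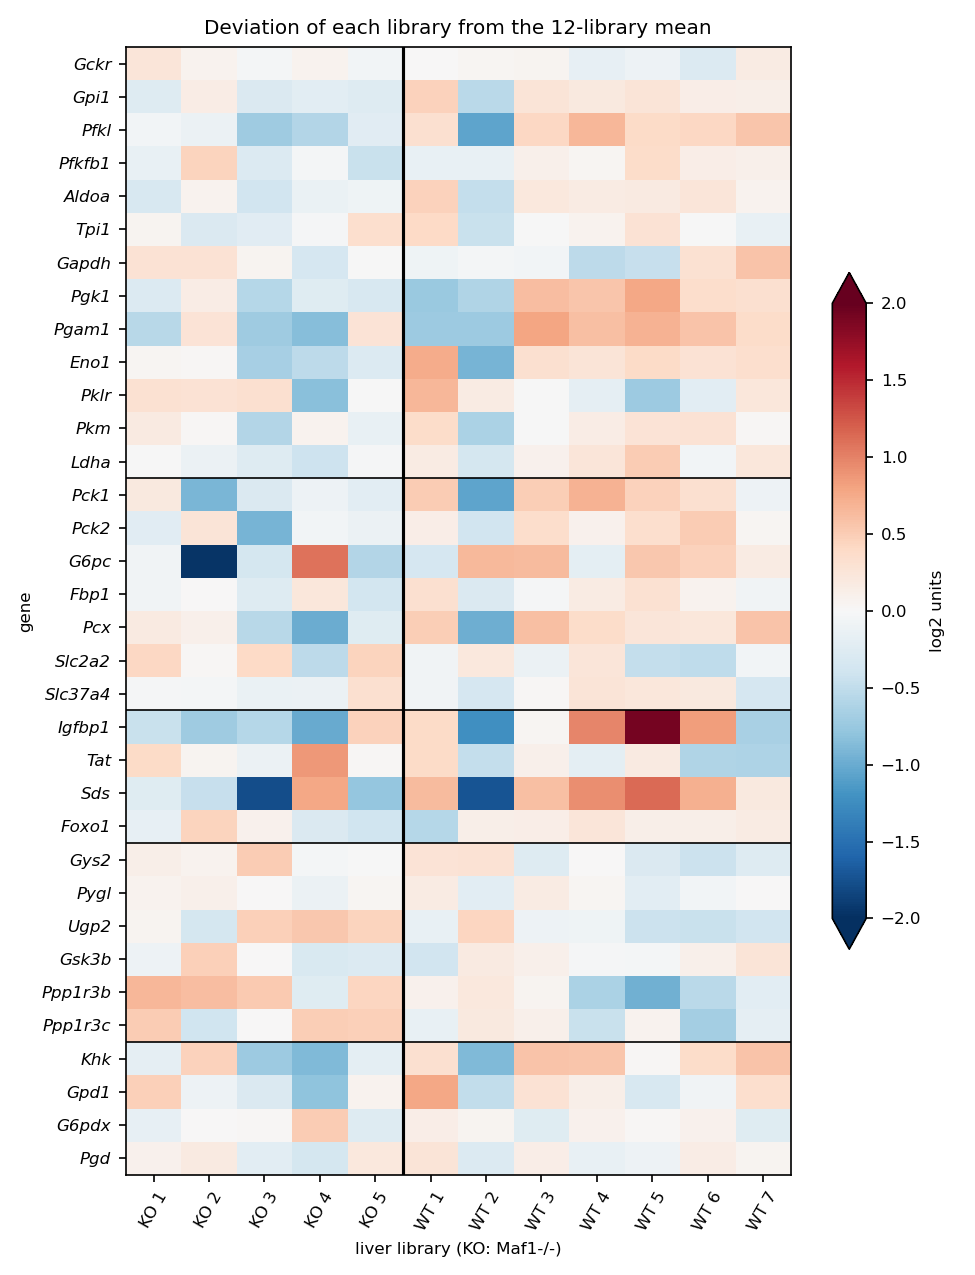
Deviation of each library from the mean of all 12 libraries (colour, log2 units, capped at 2 in either direction) for the 34 genes in rows and the 5 *Maf1*-/- (KO) and 7 WT libraries in columns. WT 2 is blue across most glycolytic and gluconeogenic rows, where its median deviations were −0.48 and −0.33. *Igfbp1* and *Sds* have strong colours within both genotypes, and *G6pc* has them within *Maf1*-/- liver.

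The genes differed among mice of 1 genotype in ways that the groups did not follow. WT 2 lay below all other WT libraries for 17 of the 34 genes and above them for 5. KO 4 combined low *Pklr* (5.35), *Slc2a2* (7.85) and *Ppp1r3b* (8.13), which are the lowest *Maf1*-/- values, with the highest *G6pc* (7.38), *Tat* (10.62) and *Sds* (4.66) of the *Maf1*-/- libraries. WT 5 likewise had the lowest *Pklr* (5.45) and *Ppp1r3b* (7.40) of the WT libraries and the highest *Igfbp1* (4.42) and *Sds* (5.01). These libraries and genes were singled out after their values were seen, and *Igfbp1* of KO 4 (1.49) was the lowest of the *Maf1*-/- libraries.

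Relations between genes across the 12 libraries were computed for 6 pairs, with two-sided permutation p adjusted over the pairs. *Pck1* and *Igfbp1* had a Pearson r of 0.72 (permutation p = 0.00812, adjusted p = 0.0487) and a Spearman rho of 0.73 (permutation p = 0.00875, adjusted p = 0.0525). Without KO 2 and WT 2, the libraries farthest from the median of *Pck1*, r was 0.64. Within WT livers r was 0.78 (exact permutation p = 0.0272, adjusted p = 0.163, n = 7) and −0.02 without WT 2 and WT 7, so within WT the relation rests on those libraries. For deviations from the group means r was 0.66 (adjusted p = 0.125). The other pairs, of which 3 joined *Pck1* to *G6pc*, *Tat* and *Pklr*, 1 joined *Pklr* to *Khk* and 1 *Ppp1r3c* to *Ppp1r3b*, had r between −0.22 and 0.37 and adjusted p of 0.552. *Pck1* and *G6pc*, at r = 0.33 with all libraries, had 0.61 without WT 2 (adjusted p = 0.138) and −0.45 within WT livers (adjusted p = 0.53).

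**Figure D4:**
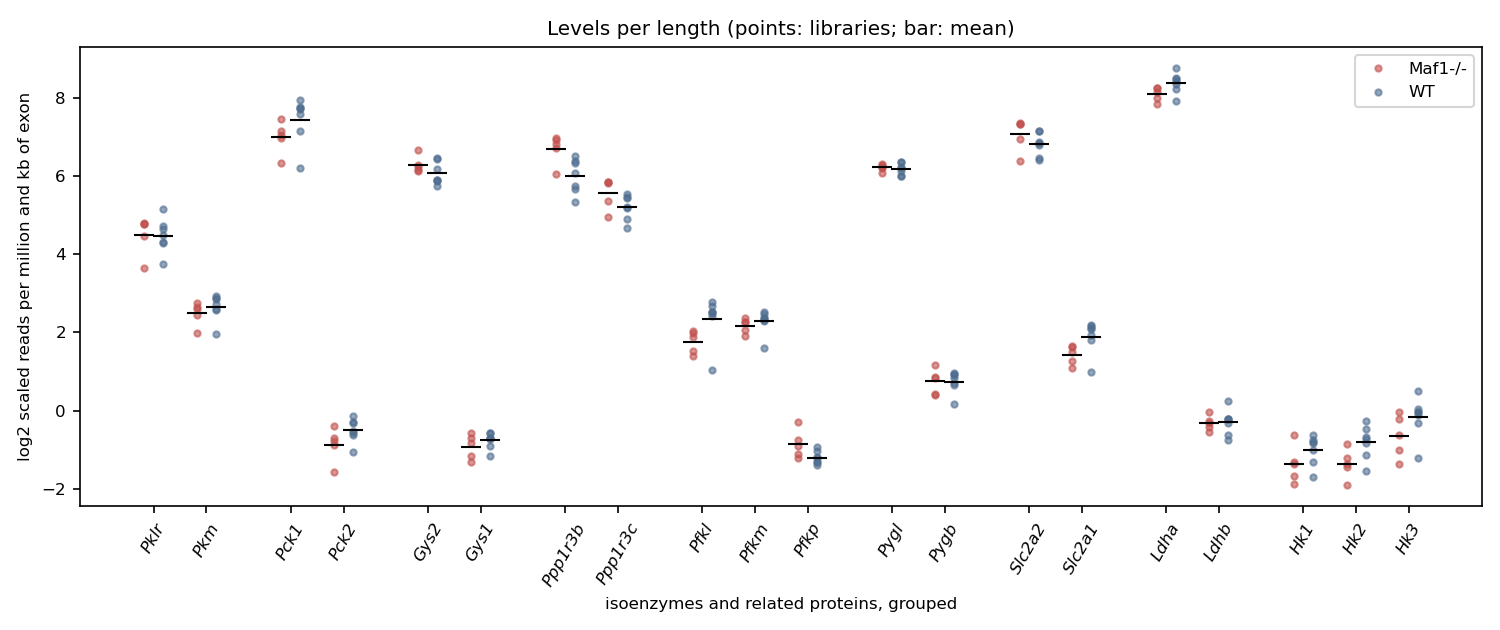
Levels per length (vertical axis, log2 CPM per kb of exon) of isoenzymes and related proteins in *Maf1*-/- (left point column of each gene) and WT livers (right column). Points are libraries and black bars are means. *Gys2*, *Pck1*, *Pygl*, *Slc2a2* and *Ldha* lie 4 or more log2 units above their partners in every library, and *Pfkl* and *Pfkm* lie together.

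Levels per length, the log2 value less the log2 of exon length in kb, allow genes to be compared, and most liver forms led in both genotypes. *Gys2* lay above *Gys1*, the muscle synthase, by 7.21 ± 0.51 log2 units in *Maf1*-/- and 6.83 ± 0.42 in WT liver (SD, n = 5 and 7), and *Pck1* above *Pck2* by 7.86 ± 0.70 and 7.94 ± 0.42. *Pygl* lay above *Pygb*, the brain form, by 5.48 ± 0.38 in *Maf1*-/- and 5.44 ± 0.24 in WT, and *Slc2a2* above *Slc2a1* by 5.65 ± 0.44 and 4.92 ± 0.66. *Ldha* exceeded *Ldhb* by 8.41 ± 0.31 in *Maf1*-/- and 8.68 ± 0.34 in WT liver. The distance between *Pklr* and *Pkm* was smaller, 2.01 ± 0.65 in *Maf1*-/- and 1.83 ± 0.59 in WT, and so was that between *Ppp1r3b* and *Ppp1r3c*, 1.13 ± 0.65 and 0.81 ± 0.42.

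*Pfkl* lay below *Pfkm*, the muscle form, by 0.41 ± 0.15 log2 units in *Maf1*-/- livers and above it by 0.06 ± 0.31 in WT livers (exact p = 0.0126 for the difference between genotypes, 0.132 after adjustment over 11 pairs). *Pfkp* was the lowest of the 3. Of the hexokinases of other tissues, *Hk1* and *Hk2* lay together, with *Hk1* minus *Hk2* at −0.01 ± 0.38 in *Maf1*-/- and −0.20 ± 0.09 in WT liver, and *Hk3* lay above *Hk1*, with *Hk1* minus *Hk3* at −0.72 ± 0.43 and −0.84 ± 0.31. None of the 11 differences between isoenzymes differed between genotypes after adjustment. The genes of the 34 with the highest level per length were *Tat* (8.73 ± 0.39 in *Maf1*-/- and 8.31 ± 0.40 in WT), *Fbp1* (8.48 ± 0.23 and 8.64 ± 0.22) and *Ldha* (8.10 ± 0.17 and 8.38 ± 0.27). Their ranges overlapped in WT liver, and in *Maf1*-/- liver those of *Tat* and *Ldha* did not.

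Fold changes ran with GC content over these genes, at a Spearman rho of −0.51 across the 34, as they did over all 12482 genes with a GC value (rho = −0.69). These are relations across genes, which share the libraries. In the tenth of all genes with the highest GC content (median 59.1%) the median log2 fold change was −0.53, and *Pcx* (57.6% GC), *Khk* (57.8%) and *Pfkl* (56.8%) lay at −0.52, −0.53 and −0.58. With these trends removed, the median of the 34 genes was 0.01, with 17 values on each side of 0, and 5 genes changed sign, all to above 0. *Gapdh*, *Slc37a4* and *Ppp1r3b* then had an unadjusted p under 0.05, all higher in *Maf1*-/- liver, where 8.62% of all genes were higher at that p, and none of the 34 passed. *Igfbp1* and *G6pc* kept log2 fold changes of −0.71 and −0.71 (adjusted p = 0.375 and 0.325).

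**Figure D5:**
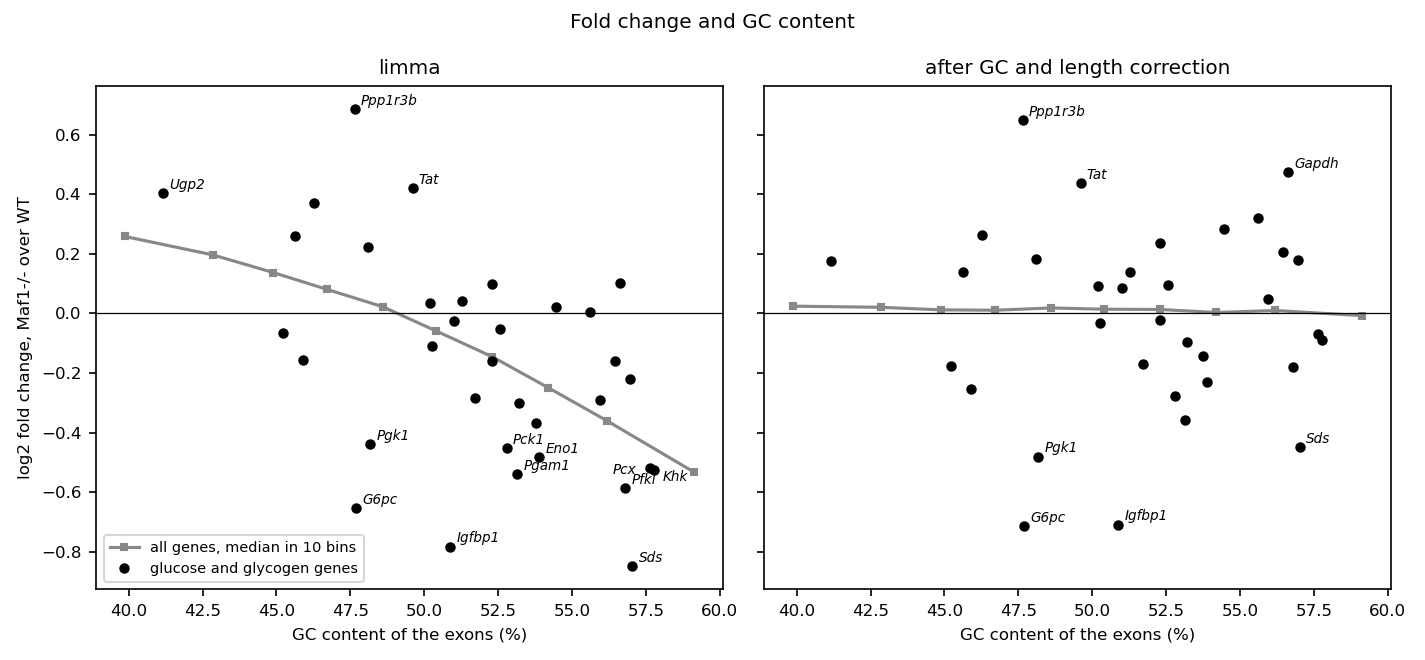
Log2 fold change of *Maf1*-/- over WT (vertical axis) against the GC content of the exons in percent (horizontal axis), before (left) and after (right) correction of each library for GC content and gene length. Black points are the 34 genes and grey squares are medians of all genes in 10 bins. *Khk* and *Pcx*, at −0.53 and −0.52 on the left, lie near the grey line in both panels, at −0.09 and −0.07 on the right, while *Ppp1r3b* is at 0.69 and 0.65.

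Which genes passed depended on how library variation was handled. With 1 factor estimated from the limma residuals in the model, *Khk* (adjusted p = 0.00166), *Pcx* (0.00811) and *Pfkl* (0.00789) passed in limma, all lower in *Maf1*-/- liver. Of all genes, 6.86% passed as lower and 8.09% in either direction. The residuals were taken after genotype was fitted, so the factor left every fold change as it was and altered only the errors. It cannot remove a library effect that runs with genotype. Without WT 2, *Pfkl* and *Eno1* passed, where 5.22% of all genes passed as lower. With library weights, *Pfkl*, *Eno1*, *Pgk1* and *Khk* passed, all lower, where 10.9% of all genes passed as lower and 4.24% as higher. With the GC and length correction and 1 factor, 0 of 34 passed and 0.721% of all genes did. The shares of the 34 genes that passed, 3, 2, 4 and 0 genes, thus stood near those of all genes.

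An unadjusted p under 0.05 was reached by 12 of 34 with 1 factor (41.4% of all genes), 15 without WT 2 (43.5%), 18 with library weights (50.4%), 6 with the GC correction and 1 factor (28.5%), and 8 with the GC correction and without WT 2 (28.5%). *Ppp1r3b* was among them in each, with the higher mean in *Maf1*-/- liver. Without WT 2 the *Maf1*-/- values of *Pfkl*, *Eno1* and *Pcx* all lay below those of the other WT libraries, 3 of 34 genes, where 8.22% of all genes did.

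Genes of the same pathways outside the 34 were taken from 6 lists with 132 genes, of which 117 were measured. None of the 117 passed, and 30 had an unadjusted p under 0.05 (25.6%, 24 of them lower), against 23.1% of all genes, with a median log2 fold change of −0.10. After the GC and length correction 21 of 117 (17.9%) reached that p, against 17.7% of all genes. The list of glucose sensing and hormone response regulators had 9 of 22 such genes before correction (7 lower), at a median GC content of 55.0%. After the correction it had 4 of 22 (18.2%, 2 higher and 2 lower). *Irs2*, an adaptor of the insulin receptor, had the largest difference of those named. Its log2 values were 1.77, 1.76, 1.39, 2.42 and 1.22 in *Maf1*-/- livers, against 2.56, 1.67, 2.77, 3.29, 3.91, 3.48 and 2.73 in WT livers. All 5 *Maf1*-/- values lay below 6 of the WT values, and WT 2 lay among the *Maf1*-/- values, so the groups overlapped. The log2 fold change was −1.21 (SE 0.34, adjusted p = 0.192, exact permutation p = 0.0126), and −0.50 (adjusted p = 0.452) after the GC and length correction, at a GC content of 63.6%. *Sik1*, a kinase that cyclic AMP induces, had −0.69 (adjusted p = 0.192) and after the correction −0.39 (adjusted p = 0.221).

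Of 14 genes for the entry of pyruvate into mitochondria, 3 (21.4%, 2 of them lower) had an unadjusted p under 0.05, against 23.1% of all genes. After the GC and length correction 4 of 14 (28.6%) did, against 17.7% of all genes. *Pdk2*, a kinase that inactivates pyruvate dehydrogenase, lay at 3.64 to 4.84 in *Maf1*-/- and 3.78 to 5.33 in WT livers with a log2 fold change of −0.92 (adjusted p = 0.192), and *Pdp1*, the phosphatase that reverses this, at 1.90 to 2.72 in *Maf1*-/- and 1.32 to 2.23 in WT livers with 0.53 (adjusted p = 0.192). Both were named for having the smallest p in the list, and the signs of its other kinases and phosphatases are not given here. Their GC contents were 56.8% and 41.2%, toward opposite ends of the trend over all genes. After the GC and length correction they had −0.53 (adjusted p = 0.259) and 0.32 (adjusted p = 0.266). Neither passed.

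The list of other glycogen genes had 4 of 24 at an unadjusted p under 0.05 (2 higher and 2 lower), and 5 of 24 after the GC and length correction. For this list and those below, the shares of all genes were 23.1% before and 17.7% after that correction. *Gaa*, the lysosomal glucosidase that degrades glycogen, had −1.05 (adjusted p = 0.192). Other glycolysis had 6 of 20 (5 lower, and 3 of 20 after the correction), with *Ldhd* (D-lactate dehydrogenase, −0.44 (adjusted p = 0.192)) and *Hk2* (−0.55 (adjusted p = 0.198)). Other gluconeogenesis had 4 of 11 (4 lower, and 1 of 11 after the correction), with *G6pc3* (a glucose-6-phosphatase of many tissues, −0.70 (adjusted p = 0.192)) and *Slc25a1* (the mitochondrial citrate carrier, −0.31 (adjusted p = 0.196)). Other sugar and pentose phosphate genes had 4 of 26 (4 lower, and 4 of 26 after the correction), with *H6pd* (the hexose phosphate dehydrogenase of the endoplasmic reticulum, −0.70 (adjusted p = 0.192)) and *Pmm1* (a phosphomannomutase, −0.92 (adjusted p = 0.192)). After the GC and length correction *Slc25a1* turned to 0.25 (adjusted p = 0.458), and to 0.40 (adjusted p = 0.0501) without WT 2 as well. The other genes kept their sign and were nearer to 0, with −0.53 for *Gaa*, −0.14 for *Ldhd*, −0.38 for *Hk2*, −0.42 for *G6pc3*, −0.26 for *H6pd* and −0.61 for *Pmm1*. With 1 residual factor 14 of the 117 passed, where 8.09% of all genes did.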

How the data were processed

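RNA-seq libraries of 5 *Maf1*-/- and 7 WT livers were analysed, grouped by their labels. The authors trimmed reads with cutadapt 1.8, aligned them to GRCm38 with STAR 2.5.2b, counted reads in genes with HTSeq 0.6.1 and scaled library sizes with edgeR 3.14.0. The deposited table holds log2 values labelled RPKM. From them, whole reads (within 0.001) are recovered for 100% of values once 0.5 is taken off, which shows no division by gene length. The genotypes were fitted without trend in limma 3.58.1 (R 4.3.3), with Benjamini-Hochberg adjustment over 13304 genes. The authors' limma fit also held RUVSeq factors of unwanted variation, which the main fit here left out. Two-sided exact p used every division of the 12 libraries (smallest possible p 0.00126), and correlations used 100000 permutations. GC content and exon length came from the NCBIM37 annotation by gene identifier (93.8% of genes) and were removed by loess (span 0.4). Code was tested on simulated data. Each library is 1 mouse, and sex is not given in the sources used here.

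The members and lists were chosen with earlier results of these data known. Every member is named. Values of every library are given for the 2 genes with the smallest p in each of 5 role groups, for any that pass or do not overlap, and for *Pck1*, *G6pc*, *Pklr*, *Gys2* and *Igfbp1*, and the 2 smallest p are named in each of 6 further lists, except 1 gene that is not reported here. Genes of those lists with no row in the table are not analysed here, nor are the pol III scores. Alternatives tried are a pseudocount of 1, a minimum mean log2 value of 2, other scalings, residual factors, weights, a replicate block and single libraries left out.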

Additional observations from a re-analysis of the deposited data

Results flagged for a closer look

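Single libraries stood apart from the rest of their genotype in 17 of 72 groups of values compared by Dixon's criterion (34 genes, GC slope and library size in each genotype). The groups share the same libraries and are not independent, so their number is not set against chance. Of these 17, 10 were WT 2. WT 2 was the lowest WT library for *Gpi1* (log2 value 6.19), *Pfkl* (3.18), *Aldoa* (6.10), *Eno1* (5.13), *Pkm* (3.21), *Pcx* (7.57), *Sds* (2.15) and *Khk* (5.84), the highest for *Ugp2* (9.03), and the lowest in GC slope (−0.57 log2 units per 10 points). Without it, 2 of the 34 genes passed the thresholds, against 0 with all libraries.

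KO 4 was the lowest *Maf1*-/- library for *Pklr* (5.35) and *Ppp1r3b* (8.13). KO 2 was the highest for *Gpi1* (6.87), KO 3 for *Gys2* (8.08) and KO 5 for *Slc37a4* (7.64). WT 1 was the lowest WT library for *Foxo1* (3.57) and had the most reads in the listed genes (55787438). Causes of these positions were not tested.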

How the results depend on the processing

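Among the 15 genes given by library, the sign of the fold change reversed in *Pklr* and *Gpd1*. For *Pklr* it was −0.05 without KO 1, without KO 2 or without KO 3, −0.01 without WT 4 or without WT 6 and −0.10 without WT 5 (−0.10 to 0.23 over all libraries left out). For *Gpd1* it was 0.18 with the GC and length correction, alone or with 1 factor, 0.21 with that correction and without WT 2, and 0.13 with that correction and the replicate block. The relation of *Pck1* to *Tat* reversed without WT 2 (r = −0.0175), and that of *Pck1* to *G6pc* had the opposite sign within WT. That of *Pck1* to *Igfbp1* lost its call with the correction (r = 0.62), as deviations from group means (0.66) and without WT 2 (0.65).

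Of the 34 genes, 0 passed with all libraries, 3 with 1 factor, 3 with 2 factors, 4 with library weights and 0 to 2 with single libraries left out. At an unadjusted p under 0.05 there were 2 with all libraries (23.1% of all genes), 12 with 1 factor (41.4%), 13 with 2, 18 with weights (50.4%), 6 with the correction and 1 factor (28.5%) and 8 with the correction and without WT 2 (28.5%), which was chosen after seeing the data, as were the other correlations without WT 2. Leaving out single libraries gave 1 to 15, with 9 without KO 2, 4 without KO 4 or WT 1, 15 without WT 2 (43.5% of all genes) and 1 without KO 5 or any of WT 3 to WT 7. For 2 factors, the replicate block and the other libraries left out, no share of all genes is given here. Those counts, and those of the pathway genes below in the same settings, therefore cannot be set against the whole table. Genes whose groups did not overlap numbered 0 to 3, and the median log2 fold change was −0.21 to −0.11. Of the 117 other pathway genes, 14 passed with 1 factor (8.09% of all genes), 15 with 2 and 24 with weights (21 lower). With weights 10.9% of all genes passed as lower and 4.24% as higher. There was 1 with the correction and 1 factor (0.721% of all genes), and 0 to 11 with single libraries left out. Without WT 2, 10 passed as lower, where 5.22% of all genes did. At an unadjusted p under 0.05 there were 30 (25.6%, against 23.1% of all genes). With 1 factor there were 52 (44.4%, against 41.4%), with 2 factors 59, and with weights 62 (53.0%, against 50.4%). Single libraries left out gave 17 to 58. There were 58 without WT 2 (49.6%, against 43.5%), and 17 to 19 without KO 3, KO 4, WT 3, WT 4, WT 6 or WT 7.

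The replicate numbers 1 to 5 did not pair the samples (correlations of −0.46 to 0.23, 1 of 5 above 0.1, and 0 of 5 *Maf1*-/- libraries closest to its own number). With the replicate block, which leaves out WT 6 and WT 7, 3 of 34 genes and 3 of 117 pathway genes had an unadjusted p under 0.05, and 4 and 4 with the block and the correction.

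The median 95% interval of the 34 genes reached 0.42 log2 units to either side before adjustment. Counting of reads with several matches was not tested.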

Other observations

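*Pgk1* and *Pgam1*, both with most of their sequence repeated elsewhere in the genome, split the WT livers in the same way. *Pgk1* had log2 values of 3.20, 3.63, 2.90, 3.23 and 3.15 in *Maf1*-/- livers, against 2.73, 2.88, 4.09, 4.03, 4.26, 3.83 and 3.80 in WT livers. *Pgam1* had log2 values of 2.03, 2.86, 1.88, 1.74 and 2.86 in *Maf1*-/- livers, against 1.85, 1.86, 3.38, 3.19, 3.29, 3.16 and 2.96 in WT livers. WT 1 and WT 2 lay well below the other 5 WT libraries in both genes and near the lower *Maf1*-/- values, whereas in *Eno1*, the next enzyme of the pathway, WT 1 was the highest of all libraries (6.80) and WT 2 the lowest (5.13). This was noticed after the values were seen and was not tested.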
